A study of Mus musculus with 12 samples.

Results

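The S100 genes encode small calcium-binding proteins, and 10 of them were followed here through mouse epidermis sorted into 5 cell groups: S100a3, S100a4, S100a6, S100a8, S100a9, S100a10, S100a11, S100a14, S100a16 and S100b. They were chosen by name, and each was read from the array probe set that the platform annotation gives to that gene alone, taking the one of highest mean log2 intensity where a gene had several. Of the 10, 9 had such a probe set, among 18193 genes that did. S100a11 shares its probe set with other genes and is given no value.

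The study profiled cells that divide infrequently and cells that divide frequently in the epidermis. Cells came from the skin of mice carrying 4 transgenes in every group: the GFP reporter pTRE-H2B-GFP with its activator K5-tTA, and the recombinase K14-CreER with its reporter Rosa-tdTomato. The keratin 5 promoter drives the tetracycline-repressible activator, so a histone-GFP is made in keratin 5 cells until doxycycline stops it, and cells that then divide dilute it. Doxycycline was given at 1 g per kg of food for 2 weeks, tamoxifen was injected at a single dose of 75 mg per kg of body weight, and the mice were killed 1 week after the injection, at second telogen. LRC means label-retaining cell, one that has kept the GFP. The groups were LRC of the BL fraction (3 arrays) and its non-LRC (3), LRC of the SL fraction (2) and its non-LRC (2), and a GL fraction (2) not divided by label. BL, SL and GL are read here as the basal, spinous and granular layers, which the labels do not spell out. All groups share the transgenes and both agents, no group lacks them, and the labels give no strain, sex or age. The label depends on keratin 5 promoter activity, so cells that never made H2B-GFP cannot be told from cells that lost it. Nothing in the labels says that replicates came from separate animals, so the p-values measure the spread between these arrays, which may be partly technical.

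Most S100 proteins are pairs of small subunits with EF-hand loops that bind calcium, open, and then grip a target protein. Most of the genes lie together beside the epidermal differentiation complex, the block of genes for the cornified envelope, and calcium is high in the upper living layers of the epidermis. Several S100 proteins also act outside cells, as alarm signals, and several are made by immune, glial or pigment cells as well as by keratinocytes.

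In these samples, 9 of the 10 genes lie on chromosome 3 and S100b on chromosome 10, in RefSeq's GRCm38.p6 annotation. On chromosome 3 the order starts with S100a1, S100a13, S100a14, S100a16, S100a3, S100a2, S100a4, S100a5 and S100a6, then S100a7a, S100a8 and S100a9, and ends with S100a7l2, S100a11 and S100a10. S100a4 and S100a6 are thus near neighbours, with S100a5 between them. The genes that stood highest in GL against all other arrays among the members were S100a4, S100a6 and S100b, and their promoters are shown for that reason, each from 250 bases before the transcript start to 50 bases after it. RefSeq's table held promoters for 8 of the 10 members. On the plus strand of GRCm38.p6, the window of S100a4 is chr3:90603520-90603819, that of S100a6 is chr3:90612644-90612943 and that of S100b is chr10:76253586-76253885. Capitals mark a TATAAA match.
S100a4: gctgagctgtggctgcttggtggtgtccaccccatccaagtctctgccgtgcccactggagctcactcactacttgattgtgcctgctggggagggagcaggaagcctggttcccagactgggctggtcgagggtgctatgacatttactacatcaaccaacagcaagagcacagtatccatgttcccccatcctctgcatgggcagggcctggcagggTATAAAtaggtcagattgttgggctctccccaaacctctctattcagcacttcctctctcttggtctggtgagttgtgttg
S100a6: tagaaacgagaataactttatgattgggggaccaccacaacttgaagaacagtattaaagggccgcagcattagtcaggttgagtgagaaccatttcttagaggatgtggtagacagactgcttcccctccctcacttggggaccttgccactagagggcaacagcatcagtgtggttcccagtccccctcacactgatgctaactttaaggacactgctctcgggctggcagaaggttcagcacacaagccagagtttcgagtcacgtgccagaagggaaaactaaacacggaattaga
S100b: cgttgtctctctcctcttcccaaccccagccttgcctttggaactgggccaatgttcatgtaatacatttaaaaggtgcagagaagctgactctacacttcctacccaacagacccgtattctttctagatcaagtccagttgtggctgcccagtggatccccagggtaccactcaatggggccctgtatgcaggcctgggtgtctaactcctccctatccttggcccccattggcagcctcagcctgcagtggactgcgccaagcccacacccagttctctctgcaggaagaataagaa
Both strands were searched for TATAAA, for TGANTCA (the AP-1 site) and for GGGCGG (the GC box). S100a4 held TATAAA, its first base at -31 from the start, a match found in 13.6% of 32851 mouse promoters of the same length. The S100a6 and S100b windows matched none of the 3 motifs, and S100a4 held neither of the others. TGANTCA was found in 7.81% of all promoters and GGGCGG in 35.7%. A match only says that these letters are in the window.

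Each array's background floor was set at the 95th percentile of 27 bacterial control probe sets, and it lay between 22.4 and 42.6 intensity units. Between 68.1% and 78.4% of genes were above it. Probe sets differ in how brightly they report, so levels are compared between arrays and not between genes. The bacterial spike BioB divided the arrays into 4 of low signal (467 to 524: the first replicates of BL LRC and BL non-LRC, and both SL non-LRC arrays) and 8 of high signal (2885 to 3931). That division coincides with LRC against non-LRC in SL and is balanced in BL. Of the genes Uty, Kdm5d and Eif2s3y of the Y chromosome, all 3 were above the floor on 10 arrays and none on the first replicates of the BL groups. The fraction names were checked on marker lists. Of 8 basal markers, 4 were lower in SL than in BL, and 4 were lower and 1 higher in GL than in SL. Of 7 granular markers, 4 were higher and 1 lower in SL than in BL, and 2 higher and 1 lower in GL than in SL. Of 7 spinous markers, 3 were higher in SL than in BL and 0 passed between GL and SL. Itga6, the basal integrin, fell by 0.82 ± 0.10 on the log2 scale from BL to SL (limma adjusted p = 0.000132) and by 0.94 ± 0.14 from SL to GL (adjusted p = 0.000381). Klk7, a protease of the upper layers, rose by 2.96 ± 0.20 (adjusted p = 2.6e-07) and by 1.88 ± 0.27 (adjusted p = 0.000295) in those steps. Against that order, the granular transglutaminase Tgm3 fell in both steps (-1.11 ± 0.21, adjusted p = 0.00414, and -1.96 ± 0.29, adjusted p = 0.000349), and the basal cadherin Cdh3 was higher in GL than in SL (1.35 ± 0.22, adjusted p = 0.00104). Krt10, the spinous keratin, differed by 0.16 ± 0.09 between SL and BL (adjusted p = 0.429).

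Of the 9 measured members, 5 were above the floor on all 12 arrays: S100a4, S100a6, S100a10, S100a14 and S100a16. S100a8 was above it on 11, S100a3 and S100a9 on 5 and S100b on 4. All 9 were above it on every array of at least 1 group, but 3 of them (S100a3, S100a9 and S100b) met that in GL alone.

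**Figure D1:**
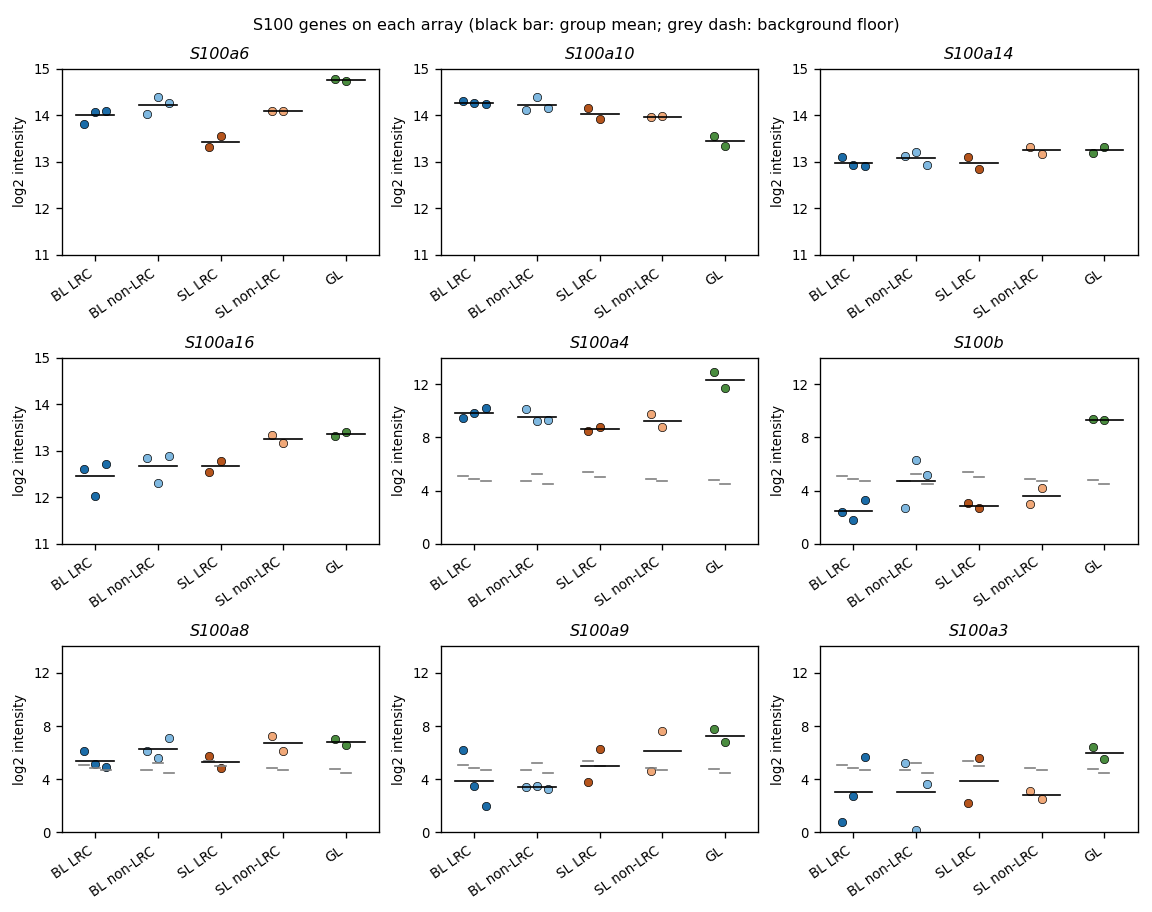
Log2 intensity of each measured S100 gene on each of the 12 arrays, by group; points are arrays, black bars are group means and grey dashes are the background floor of each array (below the axis for S100a6, S100a10, S100a14 and S100a16). The GL arrays are the highest for S100a4, S100a6 and S100b and the lowest for S100a10, while S100a3, S100a8 and S100a9 lie near the floor on many arrays.

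Against SL, S100a4, S100a6 and S100b were higher in GL and S100a10 was lower, which is 4 of the 9 members (limma on 5 group means, adjusted p under 0.05 over all genes), where 8.3% of all genes passed (1510 of 18193), 4.39% higher and 3.91% lower. The members' median difference was 1.00 on the log2 scale and that of all genes was -0.03, or 0.81 and -0.17 with values under the floor set to it. Against BL, 6 of the 9 passed, 5 higher (S100a4, S100b, S100a6, S100a16 and S100a9) and 1 lower (S100a10), where 17.1% of all genes passed (3106), 8.66% higher and 8.41% lower. The median was 0.95 for the members and -0.02 for all genes, or 0.85 and -0.16 with values under the floor set to it. These counts and medians include S100a3, S100a9 and S100b, which were above the floor on every array of a group in GL alone. Without them, the calls against SL were S100a4, S100a6 and S100a10. Those against BL were S100a4, S100a6, S100a16 and S100a10. Both comparisons use the same 2 GL arrays, so they are not separate evidence. Centring each array on its own median moved the median of all genes to -0.19 in GL against SL and to -0.16 in GL against BL, and the share of calls that were lower from 47.1% to 64.8% and from 49.3% to 60.9%.

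S100a4, a binder of non-muscle myosin known from motile cells, fibroblasts and leukocytes, had BL LRC intensities of 690, 898 and 1159 and BL non-LRC intensities of 1102, 614 and 623. It had 356 and 433 in SL LRC, 847 and 445 in SL non-LRC, and 7915 and 3416 in GL. Both GL arrays were above all 10 others. The log2 difference was 3.40 ± 0.35 (SE) from SL (limma adjusted p = 1.39e-05) and 2.67 ± 0.33 from BL (adjusted p = 2.04e-05). It was 2.80 from SL without the first GL replicate and 4.01 without the second, and 2.06 and 3.27 from BL, so the size depends on which GL array is used.

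S100b, best known from glia and also made by melanocytes and dendritic cells, had intensities of 677 and 620 in GL. It had 5.23, 3.41 and 9.55 in BL LRC, 6.47, 77.7 and 35.9 in the non-LRC of BL, 8.33 and 6.44 in SL LRC, and 7.86 and 18.5 in SL non-LRC. Outside GL, only replicates 2 and 3 of BL non-LRC exceeded their floor. With the SL arrays at their floor, GL was at least 20.2-fold higher than SL (limma adjusted p = 0.000669). Against BL, with values under the floor set to it, the ratio was 18.4-fold (adjusted p = 0.000229). Here and below, an adjusted p-value beside a fold with values set to the floor is from the fit on values left unchanged. A second probe set of S100b, with 205 and 228 in GL, was above the floor on 1 of 4 SL arrays and on no BL array. With values under the floor set to it, GL was 5.84-fold higher than SL (limma adjusted p = 0.0399 over the 34945 single-gene probe sets) and at least 7.5-fold higher than BL (adjusted p = 0.0161).

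S100a6, or calcyclin, which binds annexins and the ubiquitin-ligase partner Cacybp, had intensities of 28267 and 27328 in GL. It had 14488, 17343 and 17504 in BL LRC, 16614, 21389 and 19605 in the non-LRC of BL, 10253 and 11968 in SL LRC, and 17393 and 17463 in SL non-LRC. The GL arrays were the highest of all and the SL LRC arrays the lowest. GL exceeded SL by 1.00 ± 0.13 (adjusted p = 0.000147) and BL by 0.65 ± 0.13 (adjusted p = 0.00133) on the log2 scale.

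S100a10, the subunit that pairs with annexin A2 and, unlike its relatives, does not need calcium, ran the other way. Its BL LRC intensities were 20179, 19630 and 19483, and those of BL non-LRC 17744, 21434 and 18206. They were 18142 and 15398 in SL LRC, 16007 and 16116 in SL non-LRC, and 11962 and 10414 in GL, so GL lay below every other array. The log2 difference was -0.80 ± 0.12 from BL (adjusted p = 0.000122) and -0.55 ± 0.12 from SL (adjusted p = 0.0100). The difference from SL did not pass without the second GL replicate (-0.45, adjusted p = 0.138) or in a fit with no mean-variance trend (adjusted p = 0.138). A second probe set of S100a10 gave differences of -1.37 ± 0.14 from BL (adjusted p = 2.58e-06) and -0.87 from SL (adjusted p = 0.00139). The third was on no GL array above the floor, and was at least 5.18-fold lower in GL than in BL (adjusted p = 0.000556) and at least 2.82-fold lower than in SL (adjusted p = 0.0240). Anxa2, the annexin partner of S100a10, differed from SL by -0.27 ± 0.13 (adjusted p = 0.263) and from BL by -0.31 (adjusted p = 0.114).

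S100a16, a widely made epithelial S100 protein, had intensities of 6208, 4170 and 6753 in BL LRC, 7371, 5023 and 7612 in the non-LRC of BL, 6001 and 6980 in SL LRC, 10308 and 9245 in SL non-LRC, and 10191 and 10735 in GL. GL lay above both BL groups and overlapped SL non-LRC. The difference from BL was 0.79 ± 0.18 (adjusted p = 0.0062), and it missed the threshold without either GL replicate (adjusted p = 0.0579 and 0.0768) and with no trend (0.0784). A second probe set gave 0.72 (adjusted p = 0.000835). From SL the difference was 0.40 ± 0.20 (adjusted p = 0.267).

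S100a14, a neighbour of S100a16 that is made in epithelia, had the smallest GL differences among the members above the floor on all arrays. Its intensities were 8825, 7873 and 7652 in BL LRC, 8905, 9495 and 7872 in the non-LRC of BL, 8742 and 7415 in SL LRC, 10229 and 9202 in SL non-LRC, and 9352 and 10230 in GL. The GL and SL non-LRC arrays were all above the BL LRC and SL LRC arrays, and the other groups overlapped. GL differed from BL by 0.22 (adjusted p = 0.297) and from SL by 0.15 (adjusted p = 0.621), and median centring turned the latter to -0.02.

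S100a8 and S100a9 together form calprotectin, which stressed keratinocytes and neutrophils make. S100a8 had 129 and 96.6 in GL, 53.1 and 29.2 in SL LRC, 157 and 70.3 in SL non-LRC, 68.9, 36.5 and 29.9 in BL LRC, and 69.8, 49.5 and 141 in the non-LRC of BL. S100a9 had 221 and 111 in GL, 13.8 and 77.9 in SL LRC, 24.9 and 199.7 in SL non-LRC, 74.6, 11.3 and 3.94 in BL LRC, and 10.8, 11.2 and 9.56 in the non-LRC of BL. The GL arrays overlapped the SL arrays in both genes, and for S100a9 they lay above all BL arrays. S100a8 differed from BL by 0.95 (adjusted p = 0.346) and from SL by 0.79 (adjusted p = 0.561). S100a9 was higher in GL than in BL (3.64 ± 1.05, adjusted p = 0.0233), a size that rests on BL values mostly under the floor and is 4.77-fold with those values set to it. That call was lost without either GL replicate (adjusted p = 0.225 and 0.0848) and with no trend (0.0806). From SL, with values under the floor set to it, the S100a9 ratio was 2.36-fold (adjusted p = 0.439).

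S100a3, a protein of the hair cuticle, had 85.1 and 45.1 in GL. Elsewhere it ran from 1.13 to 52.5 and was above the floor on 3 of 10 arrays. With values under the floor set to it, GL stood 1.80-fold above BL (adjusted p = 0.177) and 1.76-fold above SL (adjusted p = 0.343).

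**Figure D2:**
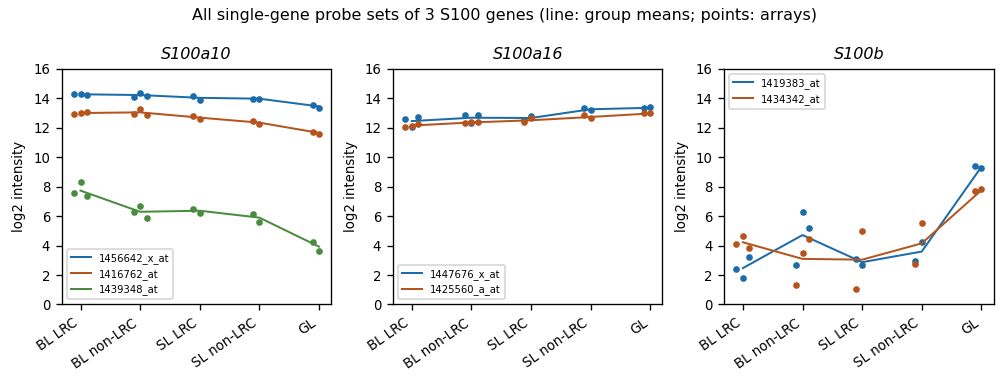
Log2 intensity of every single-gene probe set of S100a10, S100a16 and S100b; points are arrays, lines join group means and colours are probe sets. All probe sets of S100a10 are lowest in GL, and both of S100b are highest there.

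Markers of other cells were higher in GL too, where 4.39% of all genes were higher than in SL. All 10 Langerhans cell markers passed the test against SL, and their summed intensity was 45205 to 86152 in GL, 6279 to 7714 in SL LRC, 13473 to 21265 in SL non-LRC, and 4852 to 8114 over both BL groups. On every array outside GL, Epcam was the largest part of that sum (11684 and 9667 in SL non-LRC). Cd207, the langerin gene that defines these cells, had 995 and 403 in GL and was above the floor on 3 other arrays. Of 8 epidermal T cell markers, 7 were higher, with sums of 14739 to 44408 in GL and 2715 to 8822 elsewhere. Thy1 was the largest part of the T cell sum on every array outside GL, and had 5220 and 1372 in GL. Cd3e, the T cell receptor subunit, had 6784 and 1894 in GL. Of 10 melanocyte markers, 2 were higher, Dct (937 and 1399) and Tyrp1, with sums of 2196 to 3254 in GL and 667 to 1400 elsewhere. None of 6 Schwann cell markers passed against SL, with sums of 5417 to 6097 in GL and 4811 to 5910 in the SL groups. Among 9 neutrophil markers Mmp9 was higher (2261 and 377), and the sum was 496 to 2450 in GL and 137 to 283 elsewhere. In GL, 3 of the 9 were above the floor on both arrays (Mmp9, Cxcr2 at 100 and 30.6, and Camp at 28.2 and 37.0) and 5 on neither, the granule protease Elane (11.3 and 6.06) among them. Ngp and Mmp8 were above the floor on no array. Of 8 fibroblast markers, Vim was higher (15746 and 7794), and Col1a1 had 116 and 92.2 in GL. Of 9 hair follicle bulge markers, 4 were higher in GL than in SL and 0 lower, with sums of 30896 to 31187 in GL and 5153 to 20430 elsewhere. Lhx2, a transcription factor of the follicle, had 6783 and 7362 in GL and 145 to 1663 on the other arrays. Of 16 hair shaft and cuticle markers, Hoxc13 (2217 and 2736) and Krt35 (1085 and 379) were higher, with sums of 6739 to 6860 in GL and 2137 to 4080 elsewhere. Of 8 inner root sheath markers, 2 were higher and 1 lower. The first GL array was the higher for S100a4, for the Langerhans and T cell sums and for Vim, and the lower for the melanocyte sum. The part of these cells in the S100 values was not tested. In sorted bulk samples, a change in the number of cells of a type and a change in RNA per cell cannot be told apart.

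**Figure D3:**
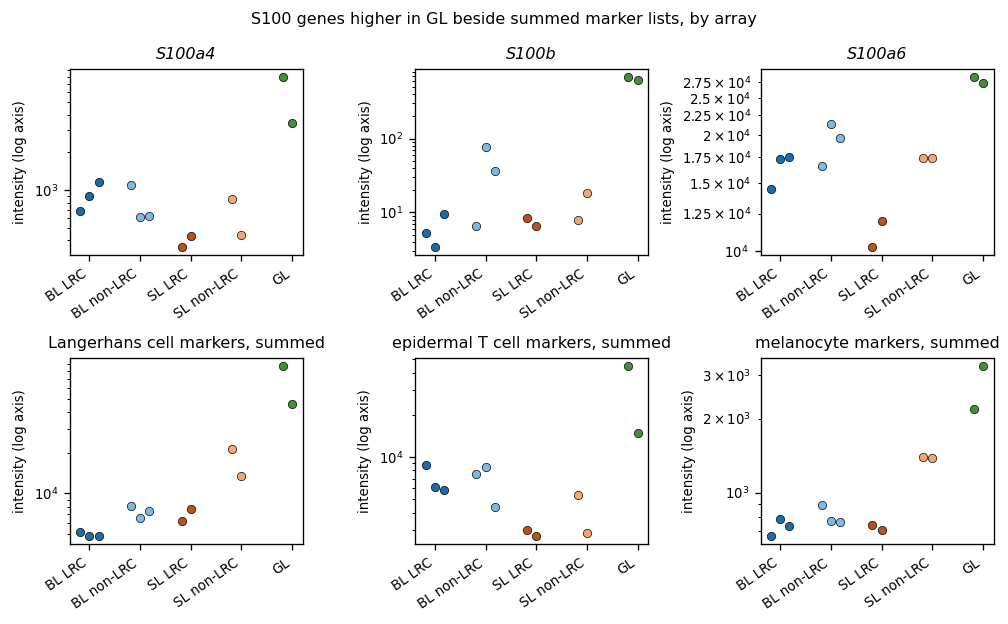
Intensity on a log axis of S100a4, S100b and S100a6 (upper panels) and of the summed Langerhans cell, epidermal T cell and melanocyte markers (lower panels) on each of the 12 arrays. Both GL arrays are the highest in every panel.

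Between SL and BL, none of the 9 members passed (limma), where 5.03% of all genes did (915). At an unadjusted p under 0.05 were 5 members and 2880 of 18193 genes. S100a9, among the 5, was above the floor on 2 of 4 SL arrays and 1 of 6 BL arrays. The members' median was 0.07 on the log2 scale and that of all genes 0.0025. The closest to the threshold was S100a6, lower in SL by value (-0.35 ± 0.10, adjusted p = 0.0528). Without the first replicates of both BL groups, which stand apart in BioB signal and in Y-linked genes, S100a6 passed as lower in SL (adjusted p = 0.00802). It also passed without either of them alone (adjusted p = 0.0289 for BL LRC and 0.0227 for BL non-LRC). In all, 6 of 20 alternatives gave a call for S100a6. It did not pass with no trend (adjusted p = 0.309), with median centring (0.106) or with only the groups compared (0.0712). S100a4 had a difference of -0.74 ± 0.26 (adjusted p = 0.136), S100a16 of 0.39 (adjusted p = 0.164) and S100a10 of -0.24 (adjusted p = 0.175). S100a8 had 0.16 (adjusted p = 0.928) and S100a14 0.07 (adjusted p = 0.832). A second probe set of S100a10 fell by 0.51 on the log2 scale (adjusted p = 0.0123). By value, S100a6 was lowest in SL LRC, whose arrays were below every BL array, and highest in GL, whose arrays were above all. Its SL non-LRC arrays lay within the range of the BL arrays.

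Within SL, S100a6 was the only member that differed between LRC and non-LRC, 1 of 9, where 4.19% of all genes passed (763), 2.7% lower. It was lower in SL LRC by 0.65 ± 0.15 on the log2 scale (-0.65, limma adjusted p = 0.0212), from the 10253 and 11968 against 17393 and 17463 given above. The members' median was -0.65 and that of all genes -0.0013, or -0.41 and 0.20 with values under the floor set to it. Median centring moved the median of all genes, with values not set to the floor, from -0.0013 to 0.12. It took the lower share of calls over all genes from 64.5% to 51.1% and gave S100a6 an adjusted p of 0.0841. The call was also lost without any 1 of the 4 SL arrays (adjusted p up to 0.215) and with no trend (0.220). With the BioB array set as a term, the difference was -0.94 (adjusted p = 0.00524). Both SL LRC arrays are in the high set and both SL non-LRC arrays in the low one. That term is therefore estimated from the BL arrays alone, and no difference within a set can be had in SL. The low-set BL arrays also had no Y-linked gene above the floor, unlike the SL arrays. In that term the array set cannot be told apart from the Y-linked difference. Langerhans markers were lower in SL LRC too, 4 of 10, as were 7 of 9 sebaceous and infundibular markers (sums of 29558 to 33493 in SL LRC and 82127 to 91650 in SL non-LRC). Of 9 bulge markers, 4 were lower and 1 higher (sums of 5325 to 5887 in SL LRC and 15586 to 20430 in SL non-LRC). Of 7 spinous markers, 4 were higher in SL LRC and 0 lower. Of 15 keratinocyte alarmin and stress genes, 3 were lower (Cxcl1, Krt6a and Krt17) and 0 higher. The part of these differences in the S100a6 value was not tested. S100a16 differed by -0.59 ± 0.23 (adjusted p = 0.175), S100a4 by -0.65 (adjusted p = 0.467), S100a8 by -1.42 (adjusted p = 0.356) and S100a14 by -0.27 (adjusted p = 0.424). S100a10 differed by 0.06 (adjusted p = 0.908), a sign that quantile normalisation turned.

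Within BL, none of the 9 members passed between LRC and non-LRC (limma), where 1.53% of all genes did (279). At an unadjusted p under 0.05 were 1 member (S100b, above the floor on no BL LRC array) and 2026 of 18193 genes. The members' median was -0.11 and that of all genes 0.05. Of 9 sebaceous and infundibular markers, 9 were lower in BL LRC, and of 7 spinous markers 3 were higher and 0 lower. S100a6 differed by -0.22 (adjusted p = 0.556) and S100a8 by -0.90 (adjusted p = 0.634). S100a4 differed by 0.26 (adjusted p = 0.842), S100a14 by -0.11 (adjusted p = 0.824) and S100a16 by -0.23 (adjusted p = 0.710). S100a10 differed by 0.05 (adjusted p = 0.925), with a sign that quantile normalisation turned. No size is given for S100a3, S100a9 and S100b in the BL, SL and SL against BL comparisons, since no group compared had them above the floor on all its arrays. The difference of the label effect between SL and BL was tested as an interaction. It passed for 0% of genes, members included (limma, 1291 of 18193 genes and 1 of 9 members at an unadjusted p under 0.05, smallest adjusted p = 0.0948). The interaction was -0.90 for S100a4 (adjusted p = 0.783), -0.52 for S100a8 (0.949), 0.0053 for S100a10 (0.995), -0.16 for S100a14 (0.915) and -0.36 for S100a16 (0.855). For S100a6 the interaction was -0.43 ± 0.20 (adjusted p = 0.695), so its label effect is not shown to differ between the fractions.

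**Figure D4:**
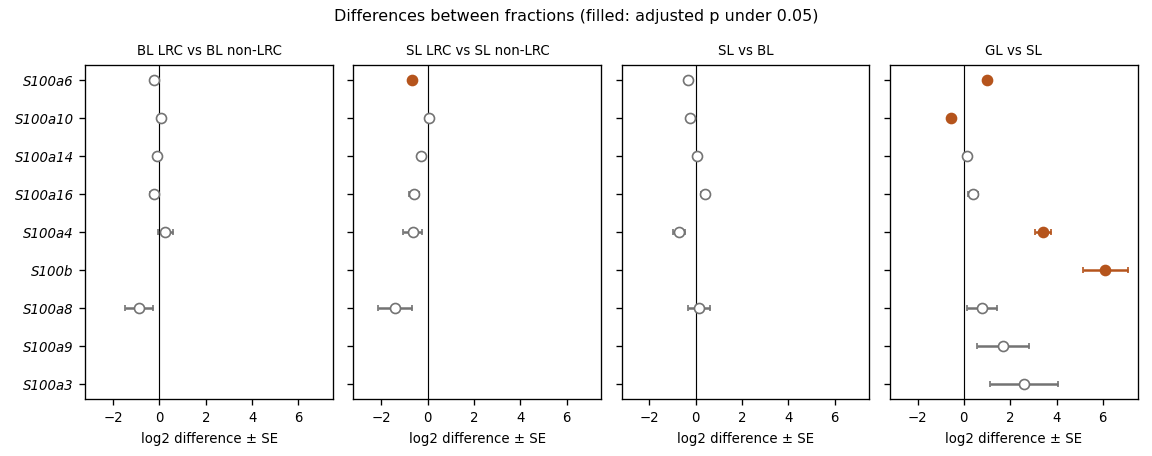
Log2 difference of each S100 gene with its standard error in 4 comparisons; filled points passed at an adjusted p under 0.05 and open points did not, and genes with no measurable direction are left out. In GL against SL, the points of S100a3, S100a9 and S100b are fitted against SL values partly or wholly under the floor, so their sizes are not measured on both sides. Filled points appear for S100a6 between the SL groups and for S100a4, S100a6, S100a10 and S100b between GL and SL.

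Other genes of the family and its pathway were followed from lists. Of 8 further S100-related genes 5 were measured. S100a1, the first S100 gene in the chromosome 3 order and known from muscle, had 914, 539 and 608 in BL LRC, 932, 908 and 1181 in the non-LRC of BL, 477 and 562 in SL LRC, 1243 and 1372 in SL non-LRC, and 5359 and 7394 in GL. GL was above all other arrays. S100a1 rose by 2.94 ± 0.23 on the log2 scale from SL (adjusted p = 1.57e-06), and it was lower in SL LRC than in SL non-LRC (-1.33 ± 0.27, adjusted p = 0.00883), the groups in which S100a6 also differed. S100a13, which helps release growth factors, fell from BL to SL (-0.86 ± 0.18, adjusted p = 0.00712). S100pbp, which encodes a protein that binds S100P and is no S100 protein itself, fell too (-0.74 ± 0.17, adjusted p = 0.0149). A second probe set of S100pbp gave -0.89 ± 0.25 and did not pass (limma adjusted p = 0.0580 over the single-gene probe sets). S100a5 was above the floor on no array. S100a7l2, outside the lists and named after its values were seen, was at least 4.06-fold lower in SL LRC than in SL non-LRC (adjusted p = 0.0454).

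The S100-fused proteins carry an S100-type EF-hand domain on a long structural chain. Of 5 measured genes, 4 were higher in GL than in BL, where 8.66% of all genes were higher, and none passed between GL and SL. Tchh, trichohyalin, rose by 3.26 ± 0.55 (adjusted p = 0.000439), and Flg, the filaggrin gene, by at least 13-fold (adjusted p = 7.49e-05). Rptn, repetin, rose by at least 9.30-fold (adjusted p = 0.00424), and Hrnr, hornerin, passed as well (adjusted p = 0.0184), with most BL arrays under the floor. Of 28 measured neighbours in the epidermal differentiation complex, 13 were higher in GL than in BL and 0 lower, and 4 were higher in GL than in SL. Over all genes, 8.66% were higher in GL than in BL and 4.39% higher than in SL. Sprr1a, a cornified-envelope precursor, rose by 1.25 ± 0.26 from SL (adjusted p = 0.00526) and Lor, the loricrin gene, by 1.92 ± 0.56 (adjusted p = 0.0422).

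Annexins and other S100 partners moved in both directions. Of 13 measured, 3 were higher in GL than in SL and 2 lower, where 4.39% of all genes were higher and 3.91% lower. Anxa6 rose by 1.78 ± 0.36 (adjusted p = 0.0048), and, with SL values under the floor set to it, Anxa9 rose 11.1-fold (adjusted p = 0.00439) and Anxa3 6.53-fold (adjusted p = 0.0136). Anxa4 fell (-0.72 ± 0.17, adjusted p = 0.0142), and the other lower gene was Anxa1. Between SL LRC and SL non-LRC, Anxa1 (0.66 ± 0.15, adjusted p = 0.0202), Anxa8 (0.65 ± 0.16, adjusted p = 0.0264) and Anxa7 (0.68 ± 0.17, adjusted p = 0.0332) were higher in LRC, opposite in sign to S100a6. Anxa9 was lower, with the sign of S100a6 (adjusted p = 0.0306), 8.66-fold with values under the floor set to it.

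Of 9 receptors and signal-relay genes for S100 proteins, Cd69 was higher in GL than in SL (limma adjusted p = 0.0073) and no other passed. Over all genes, 8.3% passed in that comparison, so this count is near the share of all genes. Of 15 keratinocyte alarmin and stress genes, 3 were higher in GL than in SL and 2 lower, where 4.39% of all genes were higher and 3.91% lower. Krt16 (2.61 ± 0.32, adjusted p = 8.44e-05) and Krt6a (2.80 ± 0.41, adjusted p = 0.000405), stress keratins, rose, and the other higher gene was Krt17. Il33 (-3.80 ± 0.36, adjusted p = 6.08e-06), a nuclear alarm cytokine, and Cxcl1 (-1.91 ± 0.36, adjusted p = 0.00265), a neutrophil chemokine, fell. S100a8 and S100a9, classed with these genes by function, did not pass in that comparison.

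For the members above the floor on at least 11 arrays, the 3 genes whose log2 values ran most like it were taken from 10366 genes above the floor on all arrays. These correlations describe 12 arrays that share groups, scaling and, for GL, other cell types. S100a4 was closest to Ctla2b (Pearson r = 0.95 over 12 arrays and 0.63 over the 10 without GL), Trgv4 (0.93 and 0.51) and Tmem86a (0.93 and 0.74). S100a6 was closest to Nck2 (0.97 and 0.94), Fscn1 (0.94 and 0.89) and Gas1 (0.94 and 0.90). S100a10 was closest to Gas5 (0.98 and 0.89), Fry (0.97 and 0.87) and Cysltr1 (0.97 and 0.85). S100a16 was closest to Spint2 (0.94 and 0.93), Hk2 (0.93 and 0.95) and Ctsf (0.93 and 0.95), and S100a14 to Tox4 (0.92 and 0.95), Acta2 (0.89 and 0.86) and Ccdc112 (0.89 and 0.88). S100a8 was closest to Tnip1 (0.90 and 0.87), Rabep1 (0.89 and 0.89) and Rcc2 (0.89 and 0.88). The likeness of S100a4 to its partners fell most when GL was left out, while those of S100a6, S100a14 and S100a16 changed little. S100a3 and S100a9 were under the floor on 7 arrays each and S100b on 8, where values have no order, so no like genes are given for them.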

How the data were processed

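Total RNA of 12 sorted cell samples was amplified and hybridised to 1-colour arrays of 45101 probe sets. The authors deposited linear intensities, 1 per probe set and array; from the values, each array was scaled to a trimmed mean of 500 and floored at 1, and no source used here names the summarisation software. The design had assumed log2 values, so log2 was taken first. Probe sets annotated to 1 gene (34945) were kept, 1 per gene by highest mean log2 (18193 genes). Probe sets with several genes (932) or none (9160) and 64 controls were left out.

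Groups were compared with limma 3.58.1 in R 4.3.3 (5 group means over all 12 arrays, trended empirical Bayes), with Benjamini-Hochberg adjustment over all genes and a threshold of 0.05. The fit was tested on simulated data. A fold against a group never above the floor is a lower bound, with that group at its floor. All p-values are from fits on values not set to the floor, also where they stand beside such folds.

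Members and lists were chosen with earlier results of these data known. The rule for named genes took all members, up to 4 genes of smallest p per comparison among those called from each list, and the 3 genes most like each member. Anxa1 and Krt17 in GL against SL, the uncalled Anxa2 and Krt10, S100a7l2 and markers given by level were named outside it, after their values were seen. Alternatives covered scaling, filter, pseudocount, probe set choice, trend, array set, replicate block and leaving out arrays.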

Additional observations from a re-analysis of the deposited data

Results flagged for a closer look

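S100a11 has no probe set of its own: the probe set that carries it is annotated to 3 genes, S100a11, its pseudogene S100a11-ps and Gm12854. That probe set gave a strong signal on data no comparison used, with intensities from 23978 to 34545 (median 29004) over the 12 arrays against a highest background floor of 42.6. SL LRC had 34545 and 30372 and SL non-LRC 23978 and 24932, and the other groups lay between 24890 and 32136. Which of the 3 transcripts gives the signal cannot be told from it, so no S100a11 level was assigned.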

How the results depend on the processing

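Of 735 values of single members under alternatives, 695 kept their direction and side of the threshold, 15 lost a call, 9 gained one and 16 changed sign. S100a4, S100a6 and S100b kept their calls in GL against SL and against BL under every alternative that tested them (the probe sets without a suffix hold none for S100a6). The count of members called in GL against SL was 4, and 3 to 4 over all alternatives, and in GL against BL 6, and 4 to 6. For SL LRC against SL non-LRC the count fell from 1 to 0 with median centring, with no trend, and with probe sets without a cross-hybridisation suffix (which do not include S100a6), and was 0 to 0 on leaving out single arrays. For SL against BL it rose from 0 to 1 with quantile normalisation, the low-value filter, the median of all probe sets, probe sets without a suffix, the array set term, the replicate block and without the first BL replicates, and was 0 to 1 on leaving out single arrays. The added call was not the same gene throughout. It was S100a6 with quantile normalisation, the low-value filter, the array set term and without the first BL replicates. With both probe set choices it was S100a10, and with the replicate block S100a16. The cause of these changes was not tested. For BL and for the interaction it was 0 throughout. All sign changes were in uncalled differences. S100a10 turned between the BL groups with quantile normalisation (-0.061), the other probe set choices (-0.045 in both) and without the first BL replicates (-0.015), and between the SL groups with quantile normalisation (-0.090) and on leaving out single arrays (-0.061 to 0.18). In the interaction it turned with quantile normalisation (-0.029), the array set term (-0.049) and on leaving out single arrays (-0.11 to 0.12). S100a8 turned in SL against BL on leaving out single arrays (-0.13 to 0.45) and in the interaction (-1.10 to 0.061), and S100a14 in GL against SL with median centring (-0.016).

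Over all genes, with no trend the calls fell from 279 to 72 (BL label), 763 to 150 (SL label), 915 to 374 (SL against BL) and 1510 to 713 (GL against SL). Fitting only the groups compared gave 183 for the BL label, leaving out the first BL replicates 174, and the array set term 320 for the SL label. Leaving out single arrays gave 131 to 288, 209 to 481, 529 to 985, 575 to 1227 and 1652 to 3159 in the order BL label, SL label, SL against BL, GL against SL and GL against BL. Where an array left out leaves 1 in its group, that array is assumed to vary like the other groups.

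The first replicates of both BL groups share low BioB signal and no Y-linked gene above the floor, unlike the other BL arrays. Whether replicate numbers pair the remaining samples is not settled by these data. In BL, the deviations of same-numbered arrays correlated at 0.11, 0.054 and 0.064. Those of differently numbered BL arrays correlated at -0.061 to -0.0017. Deviations within a group sum to 0, so these signs are partly linked. With 2 arrays per SL group the deviations mirror each other, so the -0.019 of same-numbered SL arrays cannot tell. With the replicate block, S100a9 in GL against BL was 3.13 (adjusted p = 0.0660), S100a16 in SL against BL 0.51 (adjusted p = 0.0382), and 5 members were called in GL against BL. Members near the floor (S100a3, S100a9, S100b) are limited by signal over background, and the number of arrays limits the precision.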
